A study of Mus musculus with 2 samples.

Results

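F-box proteins and the cores of cullin-RING ubiquitin ligases were examined for binding of NRF1, nuclear respiratory factor 1, at their promoters in skeletal muscle of wild-type mice. The genes were chosen by symbol, by a rule that uses no measured value but was written with earlier results of these data known: Fbxl, Fbxo, Fbxw, Cul and Cops genes with a number, together with Rbx1, Rnf7, Skp1a (listed as Skp1 in the annotation used here), Skp2, Cand1 and Gps1. Fbxo32, Fbxo30, Fbxo40 and Fbxo21 were left out. This gave 96 of 21000 protein-coding genes, 74 of them F-box genes. The study profiled NRF1 by chromatin immunoprecipitation followed by sequencing to ask whether it also binds DNA bound by the glucocorticoid receptor and LSD1. The labels describe 2 libraries of wild-type skeletal muscle, both with NRF1 as the antibody, and no treatment, age or number of pooled animals is given there. The study's reporting summary instead lists the library of replicate 2 as input DNA. A single list of 3226 peaks was deposited, and the name of each peak carries the title of replicate 1, so no value below has a replicate error. That list is somewhat longer than the number of NRF1 binding sites given in the study, and the reason is unknown. Read depth is unknown, and a gene without a peak may have had binding below the threshold of the peak caller.

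Ubiquitin ligases of the cullin-RING type mark proteins for degradation by the proteasome. A cullin acts as a scaffold: at one end it holds Rbx1 or Rnf7, RING proteins that bring in the ubiquitin-loaded enzyme, and at the other end an adaptor with a substrate receptor. In the SCF ligases, built on Cul1, the adaptor is Skp1 and the receptor is an F-box protein, which decides which substrate is marked. Cullins are switched on by attachment of the ubiquitin-like protein NEDD8, which the COP9 signalosome removes, and Cand1 allows receptors to be exchanged. In muscle, ligases of this kind are best known for the loss of protein during atrophy. NRF1 itself binds as a dimer to a GC-rich palindrome in promoters.

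A promoter peak was a peak with its summit from 1000 bp before to 100 bp after a start of a known coding transcript. The total of 2607 promoter peaks used for comparison also counts starts of non-coding transcripts, and 2552 peaks lay in a coding promoter. A promoter peak was found at 15 of the 96 genes. This is 15.6%, with a Wilson 95% interval from 9.70 to 24.2%, and 13.4% of all protein-coding genes had one. The count was thus close to the background, and the interval, which covers counting error over genes only, included it. The genes were Fbxo5, Fbxo9, Fbxo15, Fbxo25, Fbxo31, Fbxo42 and Fbxo46, Fbxw5 and Fbxw11, Fbxl5, the cullin Cul4a, the RING subunit Rbx1, the exchange factor Cand1, and the signalosome subunits Cops6 and Cops8. Each had 1 promoter peak. Fbxo9, Fbxo31 and Fbxo42 are among the loci that the study chose to show, and are not independent evidence of NRF1 at F-box genes.

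**Figure D1:**
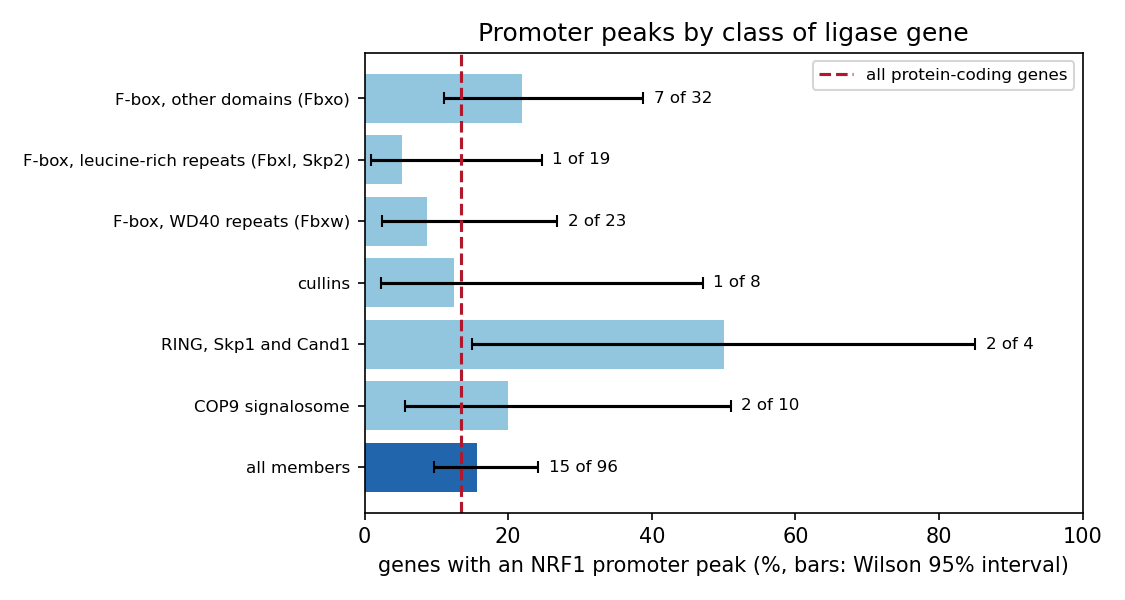
Share of genes with an NRF1 promoter peak (x axis, %) in each class of ligase gene, with Wilson 95% intervals as error bars and the share of all protein-coding genes as a dashed line. The Fbxo class stood at 7 of 32 genes and the Fbxl class with Skp2 at 1 of 19. The interval of each class but the RING, Skp1 and Cand1 class included the dashed line. That class holds only 4 genes, 2 of them with a peak, each named in the rule with earlier results known. The intervals cover counting error over genes only and are not a test, so no class is shown to differ from the line.

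The sequences that carry the NRF1 sites are shown first, because the form of the site differed between the genes. The self-complementary 10-mer found within 100 bp of the most summits of the whole list, 349 of 3226, was GCGCATGCGC, the NRF1 palindrome. At most 1 mismatch to it was counted as the motif, on either strand. Each line below gives 30 bases of mm10, read 5′ to 3′ on the strand of the gene, with the best match in capitals. The first 3 hold the exact palindrome and the next 4 hold 1 mismatch.
Fbxo42: ccccgcctcaGCGCATGCGCactgcgcgct
Fbxo9: cgacggcattGCGCATGCGCggcgcggcgg
Fbxl5: gacggggcggGCGCATGCGCaggggggcgc
Fbxw5: ggagcctgagGCGCAGGCGCaagacgggga
Rbx1: gtgagccggtGCGCAGGCGCagtggtcaca
Fbxo5: ggctcctcgcGCGCAAGCGCcaacccgcca
Fbxw11: gacacccactGCGCATGTGCggagatcgct

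These windows lie at chr4:141147899-141147928 for Fbxo42, chr9:78108641-78108670 for Fbxo9, chr5:43782128-43782157 for Fbxl5, chr2:25500722-25500751 for Fbxw5, chr15:81466321-81466350 for Rbx1, chr10:5806038-5806067 for Fbxo5 and chr11:32642361-32642390 for Fbxw11. The genes of Fbxo9, Fbxl5 and Fbxo5 are on the minus strand. Counted from 1 at the 5′ end of the palindrome, the substitution was T6G at Fbxw5 and Rbx1, T6A at Fbxo5 and C8T at Fbxw11. The T6G form, read on either strand, stood within 100 bp of 713 of all 3226 summits, the T6A form of 166 and the C8T form of 87. The Fbxw5 and Rbx1 sites thus had a form found at more summits than the palindrome itself, which stood at 349. That form counts a sequence and its reverse complement, whereas the palindrome is its own reverse complement, so the numbers are not directly comparable.

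The motif was found within 100 bp of 8 of the 15 summits, or 53.3%, with a Wilson 95% interval from 30.1 to 75.2%. That interval includes the 65.9% of all 2607 promoter peaks. The exact palindrome was found at 3 of 15, or 20%, against 10.9% of all promoter peaks. With 15 peaks, 1 peak more or fewer moves such a share by several percentage points. In 6 of the 7 peaks without the motif the best match had 2 mismatches, and at Cul4a it had 3. The distance between motif centre and summit was 3.5 to 47.5 bp, with a median of 12.5 bp. Over all promoter peaks with the motif the median was also 12.5 bp.

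Fold enrichment, the authors' ratio of signal at the summit over the control, had a median of 12.2 over the 15 peaks and ran from 6.44 at Fbxl5 to 22.2 at Fbxw5. Over all promoter peaks the median was 11.1, with quartiles of 7.90 and 16.4. Of the peaks at these genes, 5 were above the upper quartile, 6 were below the lower quartile, and none lay between 7.35 at Fbxo46 and 11.7 at Fbxo9. Of the 9 peaks above the median of all promoter peaks, 7 held the motif, and of the 6 below it 1 did. Peaks with the motif had a median of 14.2 (n = 8) and peaks without it of 6.97 (n = 7), beside 12.9 and 8.58 over all promoter peaks. The values are a description of 1 list, and no test was made of them.

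**Figure D2:**
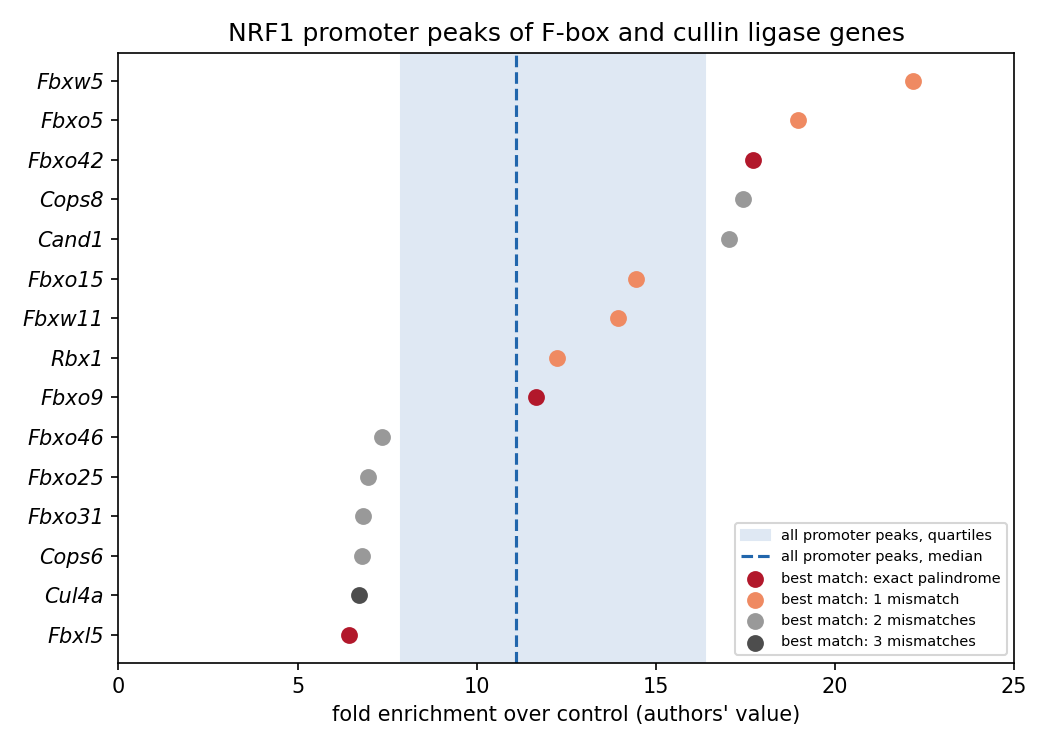
Fold enrichment over control (x axis) of the promoter peak of each of the 15 genes, coloured by the mismatches of the best match to the palindrome within 100 bp of the summit, with the median and quartiles of all 2607 promoter peaks. A gap separates the 9 upper peaks, from 11.7 at Fbxo9 to 22.2 at Fbxw5, from the 6 lower ones, from 6.44 at Fbxl5 to 7.35 at Fbxo46.

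Among F-box genes of the WD40 class, 2 of 23 had a promoter peak, or 8.70%. The interval of 2.42 to 26.8% includes the 13.4% of all protein-coding genes. Fbxw5 had the highest fold enrichment of the 15 genes, 22.2 with a −log10 q of 65.5, and 230 of the 2607 promoter peaks were higher. Its peak, on chromosome 2 from 25500585 to 25500909, held 2 copies of the motif, and the summit lay 10 bp before the start, at -10 bp. The summit was inside an intron of C8g, a complement gene on the opposite strand, whose promoter it also occupied. Fbxw11, also known as beta-TrCP2, is a receptor that recognises phosphorylated beta-catenin and inhibitors of NF-kappaB. On chromosome 11, positions 32642239 to 32642522, its fold enrichment was 13.9 and its −log10 q 32.8, with its summit at -186 bp from the single known start. Both genes thus had a peak above the median of promoter peaks with the motif at the summit.

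The other WD40 genes were without a promoter peak, and most of them form a tandem cluster. On chromosome 9, 14 genes between Fbxw13 and Fbxw28 lie within 651 kb, from 109139454 to 109790650. The nearest summit was 170232 to 549132 bp from their starts. Their CpG ratio, the observed over the expected number of CpG within 200 bp of a start, was 0 to 0.168 with a median of 0.104, and no promoter held the motif. The authors kept only uniquely mapped reads, and the part of this filter at these related genes was not tested. Without the cluster, an omission chosen after seeing the data that can only raise the share, 2 of 9 Fbxw genes and 15 of 82 genes in all had a promoter peak, or 18.3% beside 13.4% of all protein-coding genes. Fbxw7, the receptor for cyclin E and Myc, had its nearest summit at -232812 bp from a start.

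Of the Fbxo class, whose members carry domains other than leucine-rich or WD40 repeats, 7 of 32 genes had a peak. This is 21.9%, and the interval of 11.0 to 38.8% includes the 13.4% of all protein-coding genes. The strongest was at Fbxo5, also known as Emi1, an inhibitor of the anaphase-promoting complex. Fold enrichment there reached 19.0, and the −log10 q of 86.1 was the largest of the 15 genes. This peak spans chromosome 10 positions 5805875 to 5806158. The summit lay far from the start, at -561 bp, and no known start of another gene was nearer. With promoters of 500 bp to either side of a start it was no longer counted. Fbxo42, a Kelch-repeat protein, had a fold enrichment of 17.7 and a −log10 q of 36.4 on chromosome 4 from 141147775 to 141148105. Its summit was at -18 bp and the exact palindrome was centred 9.5 bp from it.

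At Fbxo9, fold enrichment was 11.7 and −log10 q was 29.9, in a peak spanning chromosome 9 positions 78108540 to 78109016. The summit was at -6 bp from one of 2 known starts, the exact palindrome was centred 6.5 bp from it, and the promoter of Cilk1, a protein kinase gene, shared the peak. The other 3 Fbxo peaks near a start were low and had 2 mismatches as the best match. Fbxo46 had a fold enrichment of 7.35 on chromosome 7 from 19119630 to 19119795, with the summit at -118 bp. Fbxo25, which is related in sequence to the atrophy-linked Fbxo32, had 6.97 on chromosome 8 from 13907623 to 13907786, with the summit at -65 bp. Fbxo31, a receptor for cyclin D1, had 6.83 on chromosome 8 from 121578694 to 121578851, with the summit 26 bp after the start, in the untranslated part of the first exon. Their −log10 q values were 11.1, 8.75 and 11.4. All 3 were below the lower quartile of promoter peaks.

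The Fbxl class, with leucine-rich repeats, had 1 peak among 19 genes when Skp2 is counted with it, or 5.26%. Classes were formed by symbol, so the other F-box genes without the Fbx symbol, listed below, enter none of the class shares. The interval, 0.935 to 24.6%, includes the 13.4% of all protein-coding genes. Fbxl5 is the receptor that senses iron and marks iron regulatory protein 2 for degradation. Its peak, on chromosome 5 from 43781971 to 43782195, held the exact palindrome but was the lowest of the 15, with a fold enrichment of 6.44 and a −log10 q of 8.26. Among the 285 promoter peaks with the exact palindrome the median was 14.3, with a lower quartile of 9.82. The palindrome was centred 47.5 bp from the summit, the largest such distance among the 8 peaks with the motif, and the summit was 54 bp after the start, outside the coding part of the exon. Skp2, the receptor for the cell cycle inhibitor p27, had its nearest summit 69186 bp after a start.

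**Figure D3:**
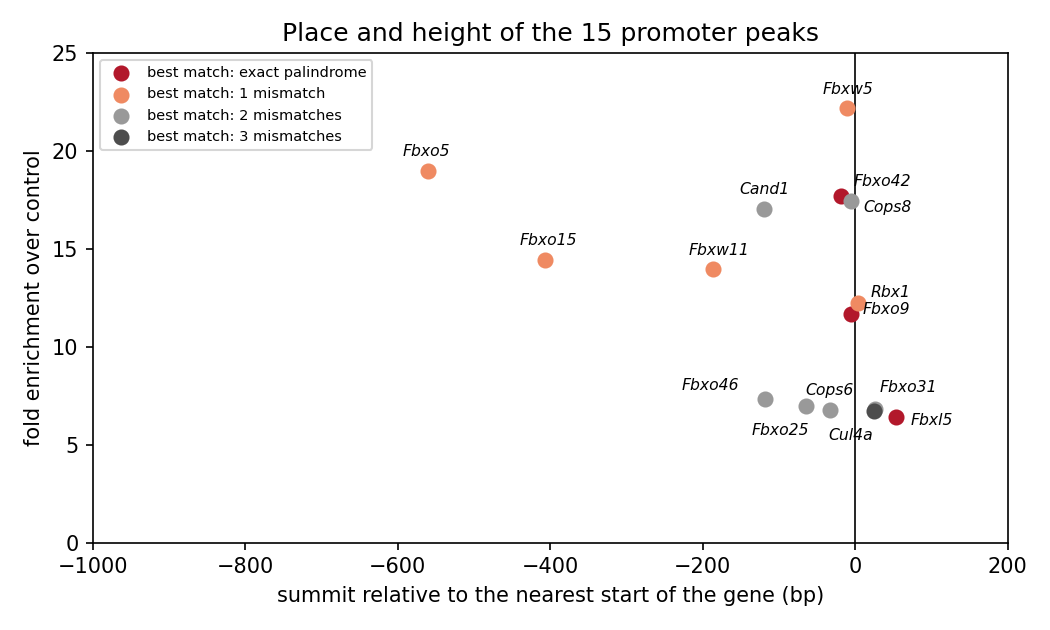
Distance of the summit from the nearest known start of the gene (x axis, bp, negative before the start) against fold enrichment over control (y axis) for the 15 promoter peaks, coloured as by the best match to the palindrome. Summits of 10 genes lay within 100 bp of the start, and Fbxo5, Fbxo15, Fbxw11, Cand1 and Fbxo46 lay farther upstream.

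Among the core subunits, 1 of 8 cullins had a peak, or 12.5%, near the 13.4% of all protein-coding genes, and so did 2 of the 4 genes Rbx1, Rnf7, Skp1 and Cand1. The cullin was Cul4a, the scaffold that works with Ddb1, on chromosome 8 from 13105528 to 13105722. Its fold enrichment was 6.71 and its −log10 q 12.1, the summit lay 25 bp after the start in the untranslated part of the first exon, and the peak was shared with the promoter of Pcid2. Cul4b, the X-linked paralogue, had its nearest summit 1672698 bp from its start. Cul1, the SCF scaffold, had its nearest summit at 140438 bp, Cul2 at 992335 bp, Cul3 at 564683 bp and Cul5 at 130765 bp. Of the RING subunits, Rbx1 had a peak, and Rnf7 had its nearest summit at -410753 bp. At Rbx1 (chromosome 15, 81466171 to 81466591), fold enrichment was 12.2 and −log10 q was 32.3, with the summit 4 bp after the start. Skp1, the adaptor, had its nearest summit at 128985 bp. Of the 3 common parts of SCF, Cul1, Skp1 and Rbx1, only Rbx1 was therefore counted.

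Cand1 and Cops8 were the 2 genes of the 15 with a peak above the median of all promoter peaks and no motif at the summit, and their best matches, with 2 mismatches each, are shown for comparison with the sites above.
Cand1: cctgtaaaccGCGACTGCGCagagtgcgcc
Cops8: cgacacgctcGCCCATGCGTactgagaggc

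The Cand1 window lies at chr10:119240159-119240188, on the minus strand, and the Cops8 window at chr1:90603429-90603458. The substitutions were C4A,A5C at Cand1 and G3C,C10T at Cops8. At Cand1 (chromosome 10, 119240044 to 119240302), fold enrichment was 17.0 and −log10 q was 58.8, and the match was centred 0.5 bp from the summit, which was at -119 bp. The Cops8 peak, on chromosome 1 from 90603188 to 90603571, had 17.4 and 51.0, with the summit at -6 bp. Both were above the upper quartile of all promoter peaks, whereas promoter peaks without the motif had a median of 8.58. The Cops8 promoter also held a copy with 1 mismatch, centred at -401.5 bp, outside the window around the summit.

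The COP9 signalosome, whose Cops5 subunit cleaves NEDD8 from cullins, had 2 peaks among 10 genes, or 20%, and the interval of 5.67 to 51.0% includes the 13.4% of all protein-coding genes. Besides Cops8, Cops6 had 6.79 as fold enrichment and 9.26 as −log10 q (chromosome 5, 138161024 to 138161186), with its summit at -33 bp and 2 mismatches in the best match. Cops5 itself had its nearest summit 289684 bp from a start, and Gps1, the first subunit, had one 12045 bp from a start. Neither peak of the complex held the motif within 100 bp of its summit.

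One F-box peak was nearer to the start of a neighbour. Fbxo15, a gene known for its expression in embryonic stem cells, has 2 known starts 17091 bp apart, and its peak lay at the second. It spans chromosome 18 positions 84951499 to 84952198. Fold enrichment was 14.5 and −log10 q was 45.8, and the peak held a copy of the motif with 1 mismatch. Its summit was at -407 bp from that start and at -185 bp from the start of Timm21, which encodes a subunit of the mitochondrial import machinery and was the nearest known start. For the other 14 genes the nearest known start was their own. In all, 4 of the 15 peaks, at Cul4a, Fbxo9, Fbxo15 and Fbxw5, lay in promoters of 2 or more protein-coding genes, or 26.7%, against 12.0% of all peaks in coding promoters. The assay does not tell which gene of such a pair is regulated.

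By the annotation, 8 of the 15 summits were in intergenic sequence, 4 in the part of an exon that is not coding (Cul4a, Fbxl5, Fbxo31 and Rbx1) and 3 in introns (Fbxo9, Fbxo15 and, in C8g, Fbxw5). The summit was before the start in 11 cases and after it in 4. Within 100 bp of the start were 10 of 15 summits, or 66.7%, against 70.8% of all peaks in coding promoters. The peaks were 158 to 700 bp wide with a median of 284 bp, and their GC content within 100 bp of the summit had a median of 68.2%. Over all promoter peaks these medians were 296 bp and 66.7%.

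Of the 81 genes without a promoter peak, 51 had their nearest summit more than 100000 bp from a start, and the median distance was 160116 bp. A summit within 2000 bp was found at 2 of them, both just after the start. Cul7, the scaffold that pairs with Fbxw8, had a peak with a fold enrichment of 7.87 (chromosome 17, 46650398 to 46650612), its summit 170 bp after the start and 2 mismatches in the best match. Fbxl15, a receptor for the ligase Smurf1, had one with a fold enrichment of 7.68 (chromosome 19, 46328343 to 46328558), and its summit was 276 bp after the start. Both summits lay in exons outside the coding part. The Fbxl15 peak held the motif, at chr19:46328443-46328472, and is shown because its site lies after the start.
Fbxl15: ggagcttactGCGCACGCGCagtagacagc

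With promoters of 2000 bp before to 500 bp after a start, these 2 genes were added and the count was 17. The next gene in distance was Fbxl22, with a summit 2703 bp after its start.

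The promoter sequence was then set beside the peaks. The motif occurred in the promoter window, from 1000 bp before to 100 bp after a start, of 10 of the 96 genes, or 10.4%, against 12.1% of all protein-coding genes. A promoter peak was present at 9 of these 10, against 75.4% of all genes with the motif in that window. The 3 genes with the exact palindrome, Fbxl5, Fbxo9 and Fbxo42, all had a peak, as did 89.4% of the 367 protein-coding genes with the exact palindrome in that window. Of the 86 genes without the motif, 6 had a peak, or 6.98%, beside 4.80% of all genes without it.

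The gene with the motif and no peak was Fbxo7, which takes part in mitophagy and is mutated in a form of Parkinson disease. Its promoter held 2 copies with 1 mismatch, and both are shown because they have the form seen at Fbxw5 and Rbx1, the first copy read on the other strand.
Fbxo7, first copy: agcaaacccaGCGCCTGCGCcgtgcgcgcc
Fbxo7, second copy: cgatagggaaGCGCAGGCGCtcggccctcc

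These windows lie at chr10:86021793-86021822 and chr10:86021858-86021887 on the plus strand, with the copies centred at -121.5 and -56.5 bp from the first known start. The CpG ratio there was 1.05, within the range of the genes with a peak. The nearest summit was at -64082 bp. Of the 85 protein-coding genes with at least 2 copies of this form in a promoter, 81 had a promoter peak, or 95.3%, so Fbxo7 was 1 of 4 without. This comparison was chosen after the values were seen. Fbxo7 is also among the loci that the study shows for NRF1.

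Promoter CpG content was set beside the peaks as well. Over the 15 genes with a peak the median CpG ratio was 0.930, from 0.596 at Fbxo46 to 1.09 at Fbxl5. Over the 81 without one it was 0.758, from 0 to 1.14. In all protein-coding genes the medians were 0.898 with a peak and 0.60 without. Among genes with a CpG ratio of at least 0.6, a limit chosen after seeing the data, 14 of 73 had a peak, or 19.2%, against 22.9% of all such genes. As over all genes, the share was near the background. Fbxo46 was the 1 gene with a peak among the 23 under that limit, or 4.35%, beside 1.07% of all protein-coding genes under it.

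**Figure D4:**
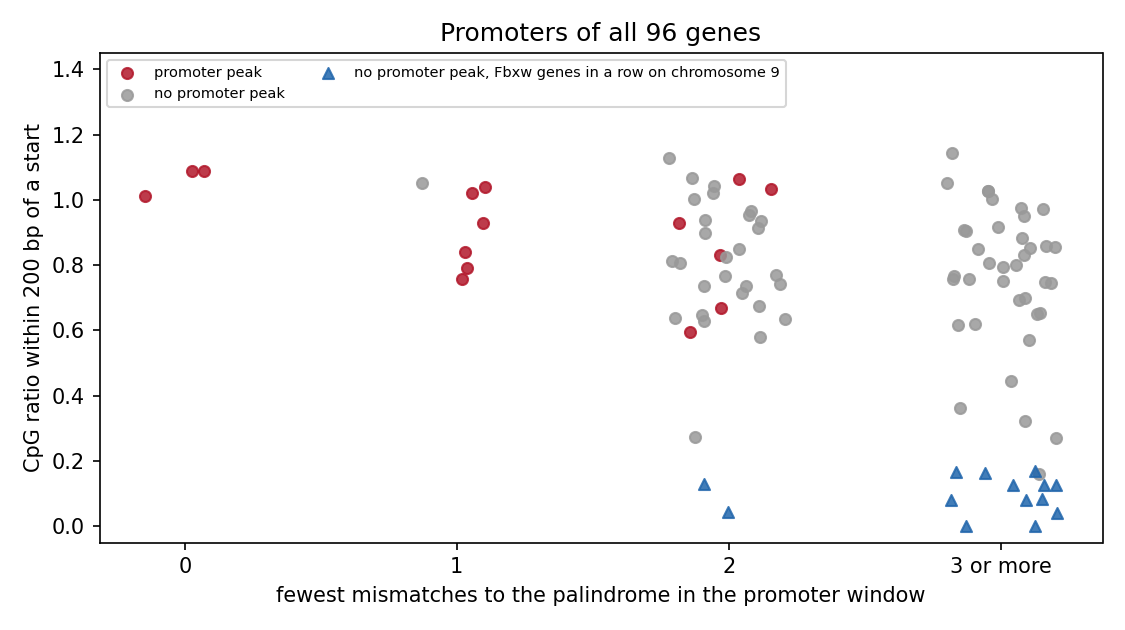
Fewest mismatches to the palindrome in the promoter window (x axis, points spread sideways within each column) against the CpG ratio within 200 bp of a start (y axis, no unit) for all 96 genes. All 3 genes with no mismatch had a promoter peak, beside 89.4% of all protein-coding genes with none, Fbxo7 is the 1 grey point in the column of 1 mismatch, and the tandem Fbxw genes lie at ratios of at most 0.168.

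Other genes of the cullin-RING system were counted from lists of symbols, also drawn up with earlier results known. Of 116 such genes, 38 had a promoter peak, or 32.8%, beside the 13.4% of all protein-coding genes. Among the 85 of them with a CpG ratio of at least 0.6 it was 34, or 40.0%, beside 22.9%. The median fold enrichment of their 39 peaks was 9.68, from 4.27 to 31.0, below the 11.1 of all promoter peaks. The motif was at 21 of the 39, against 65.9% of all promoter peaks. The peaks at Kdm2b, Nae1, Senp8, Dtl, Dcaf13, Dcaf17, Klhl10, Klhl18, Asb15, Socs2, Socs4 and Glmn also lay in the promoter of another gene. No test of these lists was made, so they are not shown to differ from other genes.

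Listed F-box proteins that do not carry the Fbx symbol had a peak in 4 of 6 cases, or 66.7%. This stands beside 13.4% of all protein-coding genes and 22.9% of those with CpG-rich promoters. Skp2, counted above with the Fbxl class, is not among the 6 and had no promoter peak. Btrc, or beta-TrCP1, the paralogue of Fbxw11, had a fold enrichment of 15.7 and the motif. The histone demethylase genes Kdm2a and Kdm2b had 14.5 and 10.6, and Ccnf, or cyclin F, had 8.75.

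The NEDD8 pathway had a peak at 5 of 11 genes, or 45.5%, beside the same 13.4% and 22.9%. Nae1 and Uba3, the subunits of the activating enzyme, had fold enrichments of 18.1 and 5.19, and Ube2m, the conjugating enzyme that works with Rbx1, had 17.8. Dcun1d1, a NEDD8 ligase for cullins, had 10.0 and Senp8, a NEDD8 protease, had 23.6. Nedd8 itself and Ube2f, the conjugating enzyme that works with Rnf7, had none.

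Among partner enzymes and inhibitors, 6 of 8 had a peak, or 75%, beside 13.4% of all protein-coding genes and 22.9% of the CpG-rich ones. Cdc34, the ubiquitin-conjugating enzyme of SCF, had the highest fold enrichment of all lists, 31.0, with a −log10 q of 127.0 and the motif at its summit. Ube2r2, its paralogue, had 5.74, Ube2g1 had 9.81, Arih1, a ligase that adds the first ubiquitin, had 5.34, Glmn, which binds Rbx1, had 9.29, and Cacul1 had 4.27. Cand2, the paralogue of Cand1, had no promoter peak, and nor did Arih2.

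Some receptors and adaptors of the other cullins also had a peak. The shares were 28.6% of the named genes, 40% of Dcaf genes, 21.6% of Klhl genes and 20% of Socs and Asb genes, beside 13.4% of all protein-coding genes and 22.9% of the CpG-rich ones, to which the last 2 were near. Of 14 named genes, Elob (5.74), Spop (9.68), Dtl (14.4) and Cop1 (21.5) had a peak, with the fold enrichment in brackets. Ddb1, Eloc, Keap1 and Vhl had none. Of 15 Dcaf genes, receptors of Cul4, 6 had one: Dcaf1 (8.58), Dcaf8 (17.0), Dcaf11 (9.19), Dcaf12 (14.3), Dcaf13 (16.8) and Dcaf17 (20.3). Of 37 Klhl genes, receptors of Cul3, 8 had one: Klhl7, Klhl9, Klhl10, Klhl11, Klhl18, Klhl22, Klhl33 and Klhl38, with the highest value at Klhl9 (20.1). Of 25 Socs and Asb genes, receptors of Cul5 or Cul2, 5 had one: Socs2, Socs4, Socs7, Asb8 and Asb15, with the highest at Socs4 (13.8), where the palindrome was exact.

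**Figure D5:**
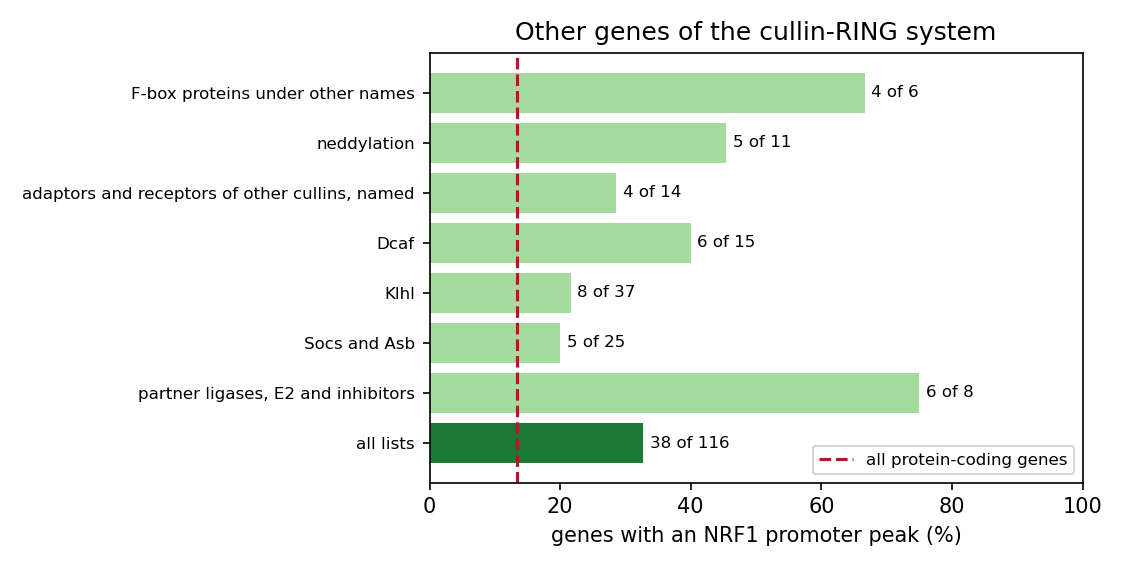
Share of genes with an NRF1 promoter peak (x axis, %) in 7 lists of other genes of the cullin-RING system and in all lists together, with the share of all protein-coding genes as a dashed line. The shares run from 5 of 25 for Socs and Asb genes to 6 of 8 for partner enzymes and inhibitors.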

How the data were processed

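The authors mapped single-end reads to mm10 with Bowtie, kept unique reads, removed blacklisted regions and called peaks with MACS2 against input DNA. The methods name a human blacklist and the broad option, whereas the deposited list has narrow peaks with summits, and "dedup" stands in each peak's name. The deposited columns used were the fold enrichment, a ratio to the control, and q-values as −log10. The deposited p-values, and a score that repeats the q-value, were not used. The methods set a false discovery rate of 0.01, which 7 deposited peaks exceed. All peaks lay within GRCm38 chromosome lengths, and starts and sequence were from RefSeq GRCm38.p6. Starts were those of known coding transcripts (NM), and non-coding starts entered only promoter peak totals and nearest starts. The motif and promoter assignment used Python 3.11.15, numpy 2.4.6, pandas 2.3.3 and scipy 1.17.1, tested on simulated data. Members and pathway lists were defined by symbol, with earlier results of these data known. Genes with a promoter peak, a summit within 2000 bp or an exact palindrome in the promoter were named, and of the pathway lists those with a promoter peak. Other named genes, such as Fbxo7, Fbxl22 and Cul1, were chosen after their values were seen. No test was made, because 1 list of peaks has no replicate error. Depth is unknown, and Wilson intervals cover counting error only.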

Additional observations from a re-analysis of the deposited data

How the results depend on the processing

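The count of 15 genes ranged from 15 to 17 over 6 alternatives, and their share from 15.6 to 19.2% with the 2 limits chosen after seeing the data, namely CpG-rich promoters and the omission of the tandem Fbxw genes (18.3%). Limits on q and fold enrichment and predicted starts kept the same 15 genes, overlap added Cul7, and windows of 500 bp either side added Cul7 and Fbxl15 and lost Fbxo5. The median fold enrichment ranged from 9.76 to 12.2. The share of all genes with a promoter peak moved from 13.4% to 14.1% with 500 bp either side, 14.7% with 2000 bp before to 500 bp after, 14.1% with any overlap, 12.8% at a q of at most 1e-05, 12.7% at a fold enrichment of at least 5, 13.9% with predicted starts and 22.9% among CpG-rich genes. The share of the 15 peaks with the motif was 53.3%, 20% with no mismatch and 93.3% with at most 2, and 46.7% within 50 bp of the summit. Of 36 alternative values, 27 stayed within their interval or within 1.5 times the count. No paired analysis was possible because there is a single group and a single peak list, and no replicate could be left out.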
